A study of Mus musculus with 6 samples.

Results

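The genes described here build the contacts between neighbouring cells: tight junctions, adherens junctions, desmosomes and gap junctions. They were chosen by name from a list of 44 symbols, of which 42 were found among the 21719 genes of the count table, while Cldn7 and Gjb2 were not analysed here. RNA was sequenced from MPC5 cells, an immortalised mouse podocyte line, and all 6 libraries came from cells in high glucose. The libraries form 2 groups of 3, called WT-labelled and KO-labelled here, whose labels give Setdb2 as wild-type or knocked out. Setdb2 belongs to a family of histone methyltransferases. The labels do not say how the edit was made, whether the knockout line is 1 clone, or whether libraries of a group are separate cultures. The p-values therefore speak only of the spread among these 6 libraries, which may be technical.

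Tight junctions seal the gap between cells with claudins, occludin and junctional adhesion molecules, which intracellular scaffolds tie to actin and to the polarity complexes. Adherens junctions join cells through cadherins and nectins that catenins and afadin anchor, desmosomes tie cells to keratin or vimentin filaments, and gap junctions are channels of connexins. Podocytes grow out of an epithelium: in the mature cell tight junctions give way to the slit diaphragm, which keeps cadherins, catenins, Tjp1 and polarity proteins among its parts.

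The libraries held 36461449 to 37129174 reads each, and Setdb2 itself was not lower in the KO-labelled libraries (17, 15 and 25 reads, against 12, 10 and 9; adjusted p = 0.088), so every direction below is that of the labels. Differences between libraries exceeded sampling noise in each pair, where chi-square divided by its degrees of freedom was 2.52 to 2.68 among WT-labelled and 4.38 to 15.8 among KO-labelled libraries, the latter highest between replicates 2 and 3. Levels are given in CPM, counts scaled by library size with edgeR's TMM factors. Podocyte markers, 9 genes, summed to 1950 to 1953 CPM in the WT-labelled and 1605 to 1679 CPM in the KO-labelled libraries. Of these, Podxl fell 10.2-fold from 50.5 to 4.96 CPM, and Wt1 had 3 reads over the WT-labelled and 1 over the KO-labelled libraries. Of 8 tubular markers, summing to 599 to 600 CPM in the WT-labelled and 149 to 160 CPM in the KO-labelled libraries, 4 were tested and they went both ways: Aqp1, which made most of the sum, fell from 468 to 51.7 CPM and Lrp2 1.32-fold, while Cubn rose 1.68-fold and Slc12a3 went from 1 to 42 summed reads. Slc12a3 reached the test only through the KO-labelled libraries, so the filter favoured a difference and its call adds no support. Other summed markers went from 124 to 130 CPM to 31.1 to 34.5 CPM for 6 mesangial and fibroblast genes, and from 3049 to 3091 CPM to 1069 to 1152 CPM for 7 parietal epithelial genes, Cldn1 among them. Endothelial markers summed to 9.33 to 9.93 against 4.69 to 5.92 CPM, with Cdh5, Tek, Tie1 and Emcn under 10 reads in each library, and 5 immune markers to 13.8 to 15.2 against 9.80 to 12.2 CPM, with Ptprc and Lyz2 under 10 reads in each library; Csf1r fell from 9.74 to 5.24 CPM, Cd68 rose 1.25-fold, and Itgam had 0 reads in the WT-labelled libraries and 12, 9 and 13 in the KO-labelled ones. In bulk RNA, fewer cells of a type and less RNA per cell cannot be told apart, and the part of these markers in the results below was not tested.

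The junction genes' summed level was lower in the KO-labelled libraries, and single members moved both up and down. They summed to 3838 to 3858 CPM in the WT-labelled and 3370 to 3434 CPM in the KO-labelled libraries, without overlap. As a share of raw totals, with no TMM scaling, their reads made up 0.364% to 0.366% of WT-labelled and 0.355% to 0.362% of KO-labelled libraries. Of the 42 members, 30 had enough reads for edgeR's quasi-likelihood test, and 27 passed at an adjusted p of 0.05, 8 higher and 19 lower in the KO-labelled libraries. This share, 90.0%, stands beside 83.8% of all 13509 genes tested, of which 41.5% were higher and 42.3% lower, so passing the test alone says little about a member. A change of at least 2-fold was seen in 9 members, 3 higher and 6 lower, or 30% against 32.6% of all genes (16.4% higher, 16.2% lower). The groups did not overlap in 26 of the 30, a share of 86.7%, against 84.6% of all genes. The median log2 fold change of the 30 was -0.26, and of all genes tested 0.0045. Scaling by total counts in place of TMM raised all genes' median by 0.15, so members with a smaller change than that are named with care below. Cldn2 reached the test only through the WT-labelled libraries and Esam only through the KO-labelled ones. The filter itself favours a difference in such genes, so their calls add no support. Setdb2, which also reached the test only through the KO-labelled libraries, did not pass.

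**Figure D1:**
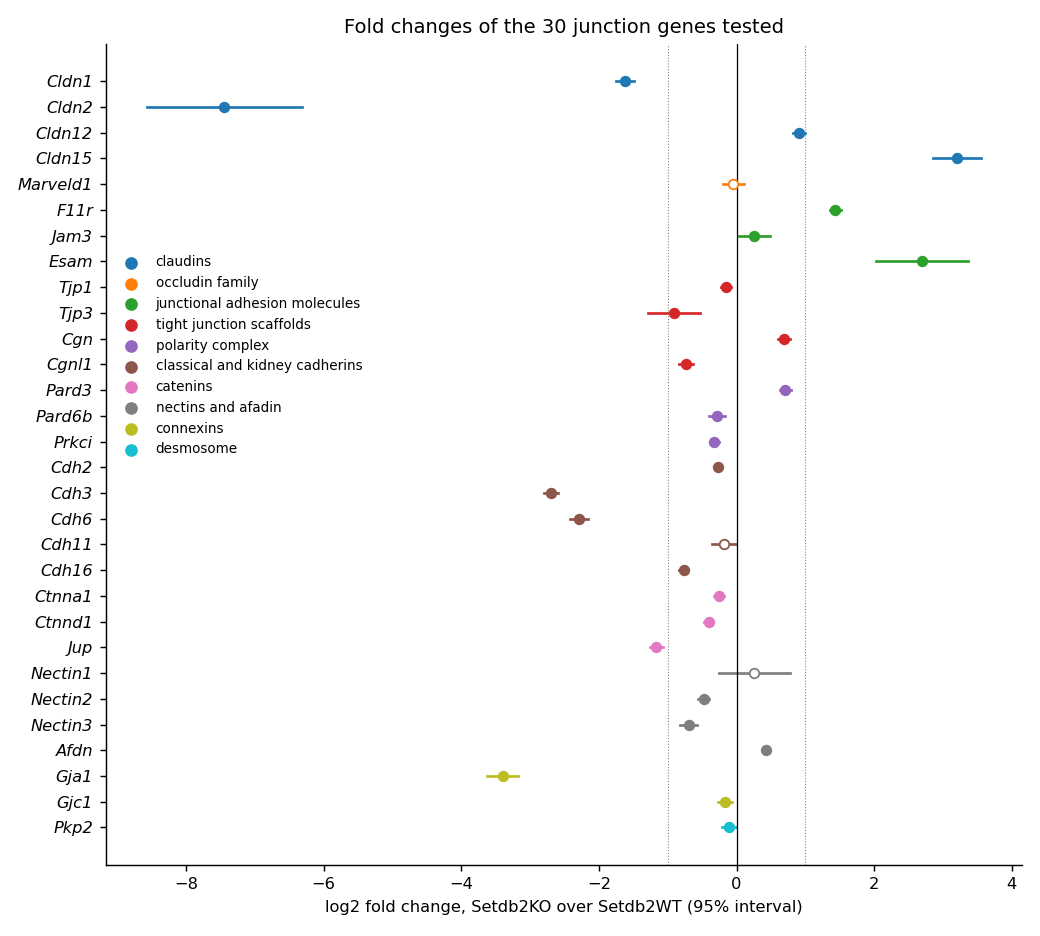
Log2 fold change of each of the 30 junction genes tested, KO-labelled over WT-labelled libraries (3 each), is on the x axis. Approximate 95% intervals were derived from edgeR's F statistic. Colours mark the role, open points did not pass the test, and dotted lines mark 2-fold. Cldn2, Gja1, Cdh3 and Cdh6 lie farthest to the left, Cldn15 and Esam farthest to the right, and most of the others lie within 2-fold.

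Of the 4 claudins tested, the strand-forming proteins of tight junctions, 2 rose and 2 fell, beside 41.5% and 42.3% of all genes tested. Cldn15, which forms paracellular pores for cations, rose 9.21-fold. Its level was 0.944, 1.02 and 0.977 CPM in the WT-labelled libraries and 9.95, 9.63 and 7.58 CPM in the KO-labelled ones (log2 fold change 3.20, SE 0.16; adjusted p = 1.6e-10, edgeR's quasi-likelihood test, Benjamini-Hochberg adjusted over all genes, as everywhere here). The third KO-labelled library was the lowest of its group, and still more than 7 CPM. Cldn2, also a pore-forming claudin for cations, went the opposite way and was nearly lost. It had 71, 73 and 75 reads in the WT-labelled libraries and 0, 1 and 0 in the KO-labelled ones, so that summed reads were 241 times higher in the former (exact 95% interval 42.9 to 9580, counting error only; adjusted p = 6.8e-09).

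Their promoters, 250 bases before to 50 after the annotated start (RefSeq, GRCm38.p6, read 5′ to 3′), are shown because these 2 claudins had the largest rise and the largest fall among members with a mean of at least 1 CPM. That of Cldn15 lies at chr5:136967619-136967918, plus strand, and that of Cldn2 at chrX:139800558-139800857, plus strand. The former is 61.0% G and C with 7 CpG pairs, the latter 51.3% with 5, against a median of 60.7% and 20 over the promoters of all genes tested. Neither holds CACCTG (the E-box of Snail and Zeb factors) or AACCGGTT (the grainyhead-like palindrome) on either strand.
Cldn15: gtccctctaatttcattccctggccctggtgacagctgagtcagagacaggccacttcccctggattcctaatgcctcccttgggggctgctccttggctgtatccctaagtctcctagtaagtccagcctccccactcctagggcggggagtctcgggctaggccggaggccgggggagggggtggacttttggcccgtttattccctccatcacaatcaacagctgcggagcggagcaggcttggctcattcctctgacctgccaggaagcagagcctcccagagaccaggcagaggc
Cldn2: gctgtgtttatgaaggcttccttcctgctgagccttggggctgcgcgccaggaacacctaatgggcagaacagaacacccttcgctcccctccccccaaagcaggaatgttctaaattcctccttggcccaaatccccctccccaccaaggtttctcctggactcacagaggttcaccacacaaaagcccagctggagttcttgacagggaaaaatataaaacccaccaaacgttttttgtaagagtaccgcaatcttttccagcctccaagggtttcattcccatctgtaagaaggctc

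Cldn1, a sealing claudin, fell 3.07-fold, from 49.9, 54.5 and 53.4 CPM to 16.4, 16.3 and 18.6 CPM (log2 fold change -1.62, SE 0.06; adjusted p = 8.1e-12). Cldn12, which lacks the PDZ-binding tail of most claudins, was the most abundant claudin in each library and rose 1.88-fold, from 177, 178 and 173 CPM to 335, 310 and 348 CPM (log2 fold change 0.91, SE 0.04; adjusted p = 4e-11). The groups of neither gene overlapped. Per kilobase of exon, which allows levels of different genes to be compared, Cldn12 stood at 44.7 ± 0.75 and Cldn1 at 16.2 ± 0.73 CPM per kb in the WT-labelled libraries, against 84.0 ± 4.9 and 5.27 ± 0.39 in the KO-labelled ones (SD, n = 3 each).

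Read as shares of the 9 claudins per kilobase, which no library scaling can alter, Cldn12 held 72.8%, 71.3% and 71.0% in the WT-labelled and 89.1%, 88.3% and 89.8% in the KO-labelled libraries. The means were 71.7% ± 0.99 and 89.0% ± 0.77 (SD, n = 3 each), a difference of 17.3 percentage points, with an exact two-sided permutation p of 0.1, the smallest that 3 against 3 can give. Cldn1 went from 26.0% to 5.58%, Cldn15 from 0.827% to 5.07% and Cldn2 from 1.10% to 0.00317%. The KO-labelled cells thus carried about as much RNA of Cldn15 per kilobase (4.76 ± 0.68 CPM per kb) as of Cldn1, which outweighed it in the WT-labelled cells (0.516 ± 0.020 for Cldn15).

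**Figure D2:**
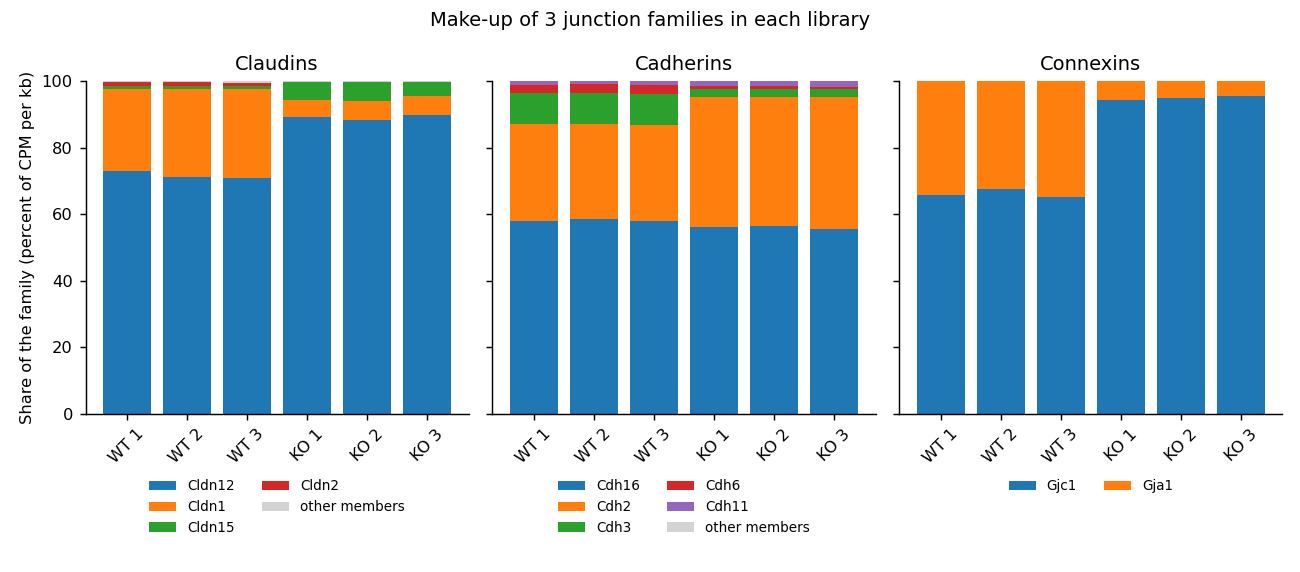
Share of each member in its family's summed CPM per kilobase of exon (y axis, percent), for 9 claudins, 6 cadherins and 2 connexins, with 1 bar per library. Cldn12 takes 71.0% to 72.8% of the claudin bars in the WT-labelled and 88.3% to 89.8% in the KO-labelled libraries, Cdh3 and Cdh6 shrink among the cadherins, and Gja1 shrinks among the connexins.

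Among the junctional adhesion molecules, immunoglobulin-type receptors beside the claudin strands, F11r rose 2.70-fold. It measured 73.4, 74.7 and 70.6 CPM in the WT-labelled and 191, 196 and 203 CPM in the KO-labelled libraries (log2 fold change 1.43, SE 0.04; adjusted p = 1.4e-13), far beyond the spread of either group. Esam, a relative best known from endothelium, rose 6.47-fold at a low level, from 10, 12 and 6 reads to 61, 79 and 62 reads (adjusted p = 1.7e-06). Endothelial markers moved both ways beside it: Pecam1 went from 8 to 39 summed reads (ratio 4.42, exact 95% interval 2.04 to 10.95) and Tek from 1 to 7, Kdr fell 1.87-fold from 3.69 to 1.97 CPM and Ehd3 from 5.80 to 3.01 CPM, and Cdh5 had 2 reads against 1. Their part in the rise of Esam was not tested. Jam3 was 1.2-fold higher with overlapping groups (6.98 to 8.23 against 8.21 to 9.63 CPM; adjusted p = 0.032), and it no longer passed when WT-labelled replicate 1 or 3 or KO-labelled replicate 1 or 2 was left out (adjusted p 0.057 to 0.12). Exons of Jam3 overlap those of Gm48796 on the opposite strand, and the strand setting of the counting is not given. Jam2 had 11 reads over the WT-labelled and 2 over the KO-labelled libraries.

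Occludin and its relatives span the membrane beside the claudins, and only Marveld1 was well expressed. It measured 26.2, 29.5 and 27.9 CPM against 24.2, 28.5 and 28.4 CPM, overlapping groups that did not pass the test (log2 fold change -0.05, 95% interval -0.20 to 0.11; adjusted p = 0.56), with a sign that turned to 0.11 under total-count scaling. Ocln had 4, 2 and 3 reads against 1, 1 and 2. Marveld2, the protein of tricellular junctions, had 0 reads in the WT-labelled libraries and 8, 16 and 10 in the KO-labelled ones, at least 10.3-fold higher against a floor of 3 reads over the group.

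Among the tight junction scaffolds 1 rose and 3 fell, beside 41.5% and 42.3% of all genes tested. Tjp1, the most abundant per kilobase, differed by 1.11-fold, from 193, 187 and 192 CPM to 174, 165 and 175 CPM (adjusted p = 7.2e-04), a fall that vanished under total-count scaling (log2 fold change -0.0017133; adjusted p = 0.96). Cgn, cingulin, was at 73.4 ± 2.3 CPM and rose 1.62-fold to 119 ± 4.4 CPM (SD over 3 libraries; adjusted p = 7.3e-10). Its paralog Cgnl1 fell 1.66-fold from 79.7 ± 4.3 to 48.0 ± 1.5 CPM (adjusted p = 2.7e-09). Nearly equal per kilobase in the WT-labelled libraries (12.2 and 11.02 CPM per kb), the 2 paralogs stood at 19.7 and 6.64 CPM per kb in the KO-labelled ones. Tjp3 fell 1.87-fold from 3.26 ± 0.47 to 1.74 ± 0.11 CPM (adjusted p = 2.6e-04), but its exons overlap those of Apba3 on the opposite strand, and the strand setting of the counting is not given in the sources used here.

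Of the polarity complex that marks the apical side, Prkci, the atypical protein kinase C, was the most abundant member and fell 1.25-fold, from 481, 468 and 475 CPM to 370, 393 and 377 CPM (log2 fold change -0.32, SE 0.03; adjusted p = 2.2e-07). Its partner Pard6b fell 1.22-fold from 49.1 ± 1.5 to 40.3 ± 2.8 CPM (adjusted p = 2.5e-04). Pard3, the scaffold that brings both to the junction, rose 1.63-fold (66.0 ± 0.35 against 108 ± 3.0 CPM; adjusted p = 2.2e-10).

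Cadherins, the calcium-dependent adhesion receptors, fell together in sum. Per kilobase the 6 members added up to 258 ± 2.0 CPM per kb in the WT-labelled and 157 ± 2.6 in the KO-labelled libraries (SD, n = 3 each), a ratio of 0.609. Of 5 tested, 4 fell, beside 42.3% of all genes tested. Cdh11 did not pass (15.4 ± 1.1 against 13.6 ± 1.0 CPM, adjusted p = 0.054). Cdh3, P-cadherin, which has been placed at the slit diaphragm, fell 6.47-fold, from 104, 107 and 107 CPM to 15.8, 17.2 and 16.1 CPM (log2 fold change -2.69, SE 0.05; adjusted p = 2.5e-15). Cdh6, a cadherin of the developing nephron, fell 4.90-fold, from 51.2, 54.2 and 56.1 CPM to 11.5, 11 and 10.5 CPM (log2 fold change -2.29, SE 0.06; adjusted p = 1.8e-13). In both genes each KO-labelled library lay far below the lowest WT-labelled one.

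Cdh16, the kidney-specific cadherin of tubules, was the most abundant cadherin per kilobase in each library. It fell 1.71-fold, from 491, 506 and 497 CPM to 295, 297 and 284 CPM (log2 fold change -0.77, SE 0.03; adjusted p = 1e-11). Of the 4 tubular markers tested, Aqp1 and Lrp2 fell and Cubn rose, as given above. Slc12a3 also rose, but it reached the test only through the KO-labelled libraries. The part of these markers in the fall of Cdh16 was not tested. Cdh2, N-cadherin, fell 1.21-fold from 368 ± 3.7 to 305 ± 2.5 CPM (adjusted p = 4.4e-07), and its share of cadherin RNA per kilobase went from 28.8% to 39.2% as Cdh3, Cdh6 and Cdh16 fell further. Cdh1, E-cadherin, had 0, 1 and 2 reads in the WT-labelled and 5, 3 and 2 in the KO-labelled libraries. The log2 ratio of Cdh1 to Cdh2 per kilobase was -13.2 ± 1.2 against -11.5 ± 0.56 (SD, n = 3 each; exact two-sided permutation p = 0.1, the smallest possible), a difference resting on 3 reads against 10 whose own ratio of 3.02 has an exact 95% interval of 0.778 to 17.1. The ratio adds 0.5 reads to each count, which sets its value in WT-labelled replicate 1, with 0 Cdh1 reads. The difference of 1.69 became 1.03 without that library and 2.21 without WT-labelled replicate 3.

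The catenins, which link cadherins to actin or desmosomes, were all lower, where 42.3% of all genes tested were lower. Jup, plakoglobin, shared by adherens junctions and desmosomes, fell 2.25-fold, from 143, 148 and 148 CPM to 66.7, 68.0 and 60.8 CPM (log2 fold change -1.17, SE 0.04; adjusted p = 5.8e-12). Ctnna1, alpha-catenin and the most abundant of the 3, fell only 1.19-fold, from 597, 579 and 582 CPM to 493, 515 and 471 CPM (adjusted p = 9.6e-06). Ctnnd1, p120-catenin, which keeps cadherins at the surface, fell 1.32-fold from 268 ± 3.4 to 203 ± 3.8 CPM (adjusted p = 1.5e-08); an annotated read-through gene overlaps its exons. Ctnnb1, beta-catenin, which is outside the list and was added after its values were seen, fell 1.28-fold from 599 ± 4.8 to 469 ± 5.9 CPM (adjusted p = 2e-08).

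Nectins are immunoglobulin-type receptors that afadin couples to actin. Afdn rose 1.34-fold, from 264, 269 and 268 CPM to 357, 364 and 354 CPM (log2 fold change 0.43, SE 0.03; adjusted p = 4.4e-09), while the nectins of the member list fell or did not pass. Nectin2 fell 1.39-fold from 98.2 ± 2.2 to 70.4 ± 1.9 CPM (adjusted p = 2.4e-08), and Nectin3 1.62-fold from 40.7 ± 1.4 to 25.1 ± 1.4 CPM (adjusted p = 3.8e-08). Nectin1, at 1.35 ± 0.37 against 1.62 ± 0.085 CPM, did not pass (adjusted p = 0.33). An antisense gene overlaps exons of Nectin2.

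Among the connexins, most of the RNA of Gja1 was lost, while that of Gjc1 was largely kept. Gja1, the most widespread connexin, fell 10.6-fold, from 30.01, 27.0 and 30.8 CPM to 3.15, 2.87 and 2.29 CPM (log2 fold change -3.40, SE 0.10; adjusted p = 8.2e-13). Gjc1 differed little, at 46.6, 45.6 and 46.5 CPM against 42.5, 42.1 and 39.0 CPM (1.12-fold lower; adjusted p = 0.0057), and did not pass under total-count scaling (adjusted p = 0.83). Gja1 therefore held 34.2%, 32.4% and 34.9% of the RNA of these 2 connexins per kilobase in the WT-labelled libraries and 5.65%, 5.21% and 4.54% in the KO-labelled ones, means of 33.8% ± 1.3 and 5.13% ± 0.56 (SD, n = 3 each; exact two-sided permutation p = 0.1, the smallest possible). Among 20 other gap junction genes listed, 12 were found and 9 of them were below the filter. The 3 tested all fell, where 42.3% of all genes tested were lower, and 3 genes are too few to describe gap junctions. Of these 3, the pannexin Panx1 fell 1.89-fold from 11.4 ± 0.59 to 6.05 ± 0.57 CPM (adjusted p = 7.6e-07).

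**Figure D3:**
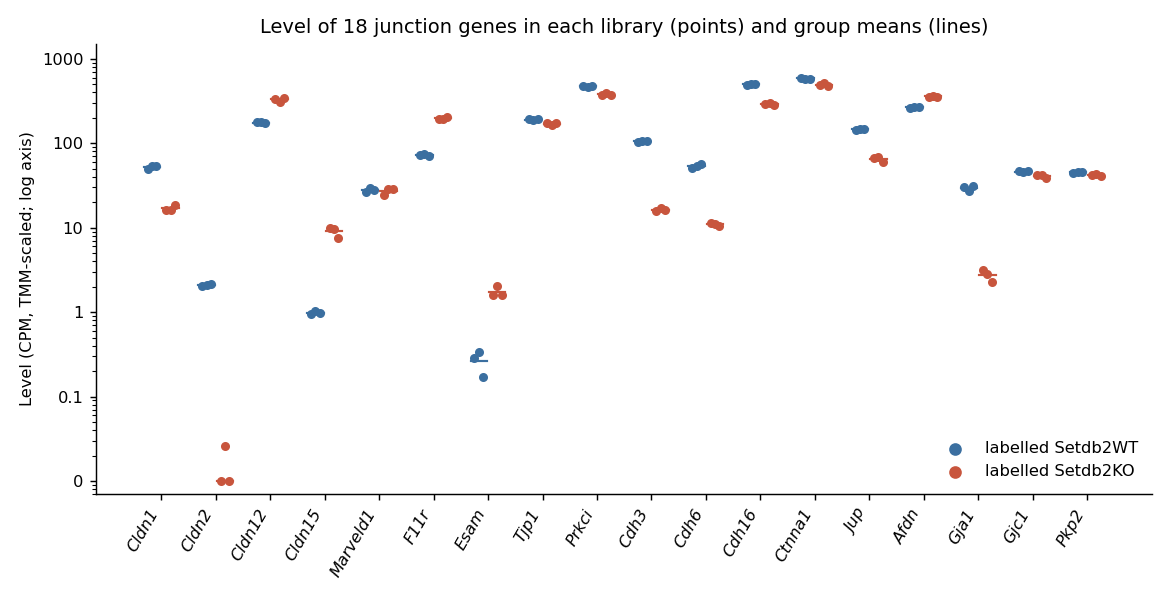
Level in each library (points; 3 per group) and group mean (lines) of 18 junction genes, on a log axis of CPM with 0 drawn at the lowest mark. Gja1 lies between 27.0 and 30.8 CPM in the WT-labelled and between 2.29 and 3.15 CPM in the KO-labelled libraries, Cldn2 is at or near 0 in the latter, and Marveld1 overlaps.

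Of the 4 desmosome members only the plaque protein Pkp2 passed the filter, at 43.97, 46.2 and 45.9 against 41.8, 43.4 and 40.7 CPM. Its 1.08-fold fall (adjusted p = 0.038) had the opposite sign under total-count scaling (log2 fold change 0.04) and was lost when WT-labelled replicate 2 or 3 or KO-labelled replicate 1 or 3 was left out (adjusted p 0.054 to 0.12). It was also lost with DESeq2's size factors (0.078), upper-quartile scaling (0.074), the DESeq2 Wald test (0.14) and a filter of 1 CPM in 3 libraries (0.061). Desmoplakin, Dsp, had 7 reads over the WT-labelled and 40 over the KO-labelled libraries (0, 4 and 3 against 21, 14 and 5), a ratio of 5.18 with an exact 95% interval of 2.30 to 13.7, counting error only. Exons of Dsp overlap those of Gm10129 on the opposite strand, and the strand setting of the counting is not given. The desmosomal cadherins Dsg2 and Dsc2 had 3 and 5 reads in the WT-labelled group and 5 each in the KO-labelled one.

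In all, 12 members stayed below the filter, with at most 21 reads in any library: Cldn3, Cldn4, Cldn5, Cldn6, Cldn23, Ocln, Marveld2, Jam2, Cdh1, Dsp, Dsg2 and Dsc2. Many are textbook epithelial junction genes. Fitted without a filter, Marveld2 and Dsp were higher and the other 10 did not pass; Cldn4, with 31 reads against 22, and Cldn23, with 10 against 29, were among these.

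Promoters of 7 of these 12 were in the RefSeq table, and 6 of the 7, all but Cldn5, held CACCTG or its complement CAGGTG (8 of 9 windows, some of which overlap). Among members that were tested, 5 of 20 genes held it. By gene, it occurred in 1466 of 5757 untested genes of the count table with promoters listed, and in 2199 of 10661 tested ones. By window, it occurred in 22.7% and 17.9% of these, and in 20.2% of all 32851 windows of 300 bases. This grouping was made after the values were seen and was given no test. A match is only a run of letters, and no factor's binding was measured. AACCGGTT occurred in no member's window and in 0.146% of all windows. Printed here, with the matches in capitals (GRCm38.p6, 5′ to 3′), are promoters chosen from those that held a match. They are those of Cldn4 (chr5:134946885-134947184, minus strand), Ocln (chr13:100552449-100552748, minus strand) and Marveld2 (chr13:100616895-100617194, minus strand).
Cldn4: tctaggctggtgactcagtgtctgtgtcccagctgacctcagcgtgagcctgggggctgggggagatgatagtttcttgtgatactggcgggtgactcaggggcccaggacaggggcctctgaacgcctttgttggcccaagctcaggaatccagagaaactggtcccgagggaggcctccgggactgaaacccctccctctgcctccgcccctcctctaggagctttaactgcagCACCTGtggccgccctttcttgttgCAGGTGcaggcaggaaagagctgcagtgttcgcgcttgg
Ocln: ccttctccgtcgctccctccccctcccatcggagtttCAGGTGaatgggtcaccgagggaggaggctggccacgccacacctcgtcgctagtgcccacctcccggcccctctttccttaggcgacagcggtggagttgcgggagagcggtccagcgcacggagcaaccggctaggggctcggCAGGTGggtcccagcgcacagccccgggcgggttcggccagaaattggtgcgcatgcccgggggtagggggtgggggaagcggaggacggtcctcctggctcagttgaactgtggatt
Marveld2: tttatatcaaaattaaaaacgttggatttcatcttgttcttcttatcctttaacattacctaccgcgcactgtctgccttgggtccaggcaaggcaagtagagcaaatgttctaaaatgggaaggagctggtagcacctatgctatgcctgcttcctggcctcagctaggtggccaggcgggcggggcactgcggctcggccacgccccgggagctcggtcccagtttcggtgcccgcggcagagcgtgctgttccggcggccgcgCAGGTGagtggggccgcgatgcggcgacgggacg
In Cldn4 the matches begin 14 bases before and 11 bases after the annotated start, in Marveld2 16 bases after it, and in Ocln 213 and 68 bases before the more downstream of its annotated starts.

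A wider list of 132 junction and polarity genes gave the setting. Of 103 found, 65 were tested, 24 were higher, 33 lower and 8 missed the threshold. Their median log2 fold change was -0.12. The share that passed, 87.7%, again stands beside 83.8% of all genes tested, where 41.5% were higher and 42.3% lower. The counts here include Ildr2 and Nectin4, which reached the test only through the KO-labelled libraries. They also include Pkp1, which reached it only through the WT-labelled ones. The filter favoured a difference in all of these, so their calls add no support. Of 18 other tight junction genes 8 rose and 7 fell. Ybx3, a DNA-binding partner of Tjp1, fell 1.98-fold from 421 ± 10 to 213 ± 4.8 CPM (adjusted p = 1.3e-12), and Amotl1, an angiomotin, 2.07-fold (adjusted p = 1.7e-11). Among 21 other adherens junction genes 14 fell and 4 rose, with the catenin-like Ctnnal1 2.48-fold, the beta-catenin inhibitor Ctnnbip1 2.61-fold and the giant cadherin Fat1 1.70-fold lower. Of 6 other desmosome genes 3 fell and 2 rose. Pkp4, a plakophilin relative that also sits at adherens junctions, rose 1.62-fold from 118 ± 2.9 to 192 ± 3.2 CPM (adjusted p = 9.1e-11), Evpl, envoplakin, rose 1.55-fold at 2.19 against 3.39 CPM, and Perp fell 1.32-fold.

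Of 17 other polarity genes 10 rose and 6 fell. They are described here, members included, by 3 textbook modules, an arrangement made after the values were seen, and no difference between modules was tested. Mark2 and Stk11, placed in none of the 3, rose 1.39-fold and 1.42-fold (adjusted p = 4.6e-09 and 6.2e-09). In the apical Crumbs module 5 of 6 tested genes rose and 1 did not pass, where 41.5% of all genes tested rose and 42.3% fell; 3 more were below the filter. Pals1, its central scaffold, rose 2.76-fold, from 59.2, 56.5 and 62.1 CPM to 169, 147 and 175 CPM (log2 fold change 1.47, SE 0.06; adjusted p = 1.4e-11). Crb3, the epithelial Crumbs, rose 2.08-fold, from 4.15, 3.91 and 4.6 CPM to 7.91, 9.50 and 8.89 CPM (adjusted p = 9e-07), whereas Crb2, the Crumbs protein of podocyte foot processes, went the other way below the filter, with 14, 21 and 10 reads against 0, 1 and 0. Patj and Mpdz, its multi-PDZ partners, and Lin7c rose 1.26-fold, 1.24-fold and 1.22-fold, and Lin7b did not pass (0.571 against 0.579 CPM; adjusted p = 0.96). In the basolateral Scribble module all 4 genes fell under TMM scaling. Llgl2 fell 3.84-fold, from 166, 163 and 163 CPM to 41.1, 44.2 and 42.8 CPM (log2 fold change -1.94, SE 0.04; adjusted p = 9.4e-15), Llgl1 1.40-fold and Scrib 1.19-fold. Dlg1 fell 1.08-fold, but its sign turned under total-count scaling (log2 fold change 0.04; adjusted p = 0.28). Dlg5, a related scaffold, fell 2.69-fold from 116 ± 1.9 to 43.1 ± 1.4 CPM (adjusted p = 2.5e-13).

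In the Par module 4 of 7 genes rose and 3 fell, where 41.5% of all genes tested rose and 42.3% fell. Some paralogs went opposite ways, while Pard3 and Pard3b were both higher. Pard6a rose 1.78-fold from 16.01 ± 0.73 to 28.4 ± 1.4 CPM (adjusted p = 2.2e-08), while Pard6g fell 2.22-fold from 14.1 ± 0.72 to 6.36 ± 0.94 CPM (adjusted p = 1.2e-07), as Pard6b did by less. The kinase Prkcz rose 1.46-fold at 2.66 against 3.90 CPM (adjusted p = 0.020) while Prkci fell. Pard3b was 1.34-fold higher with overlapping groups (adjusted p = 0.017). Prkcz no longer passed without WT-labelled replicate 3 or KO-labelled replicate 1 (adjusted p 0.095 to 0.11), nor did Pard3b without either of these or WT-labelled replicate 1 (0.063 to 0.10).

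**Figure D4:**
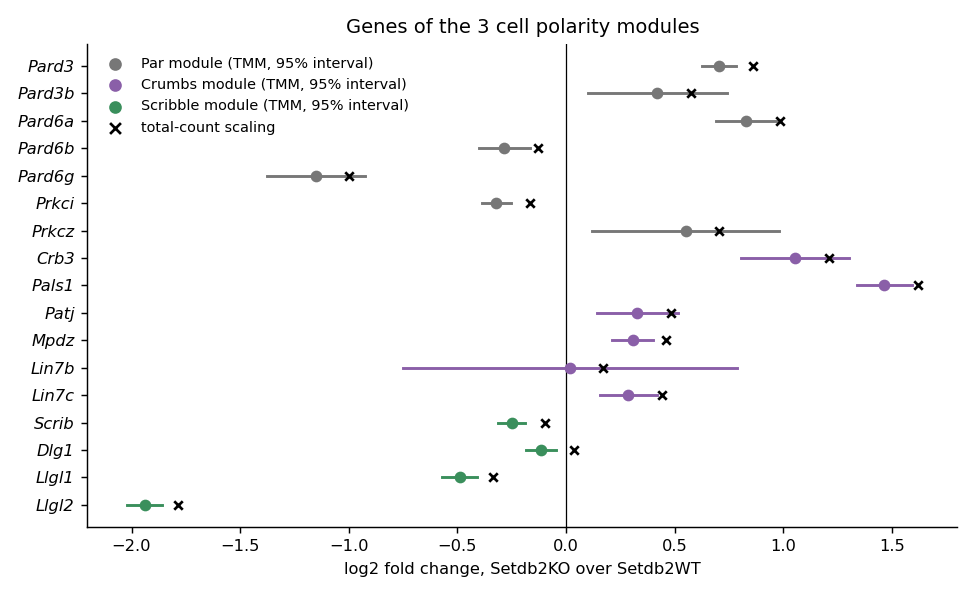
Log2 fold change of the 17 tested genes of the 3 polarity modules (x axis, KO-labelled over WT-labelled, 3 libraries each). Coloured points and lines give TMM scaling with approximate 95% intervals, and crosses give total-count scaling. The Crumbs genes lie at or above 0 and the Scribble genes below it, except Dlg1 under total-count scaling.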

How the data were processed

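The authors deposited a single table of raw counts, genes by libraries; fastp, HISAT and HTSeq on GRCm39 are named in the submitters' processing notes, without versions; the annotation and strand setting used are not given in the sources here. The 6 columns were matched to samples by genotype and number. From the counts, edgeR 4.0.16 (R 4.3.3; limma 3.58.1) was run across all genes with TMM scaling, filterByExpr (minimum count 10), genotype as the only term, the quasi-likelihood F test and Benjamini-Hochberg adjustment over 13509 genes. SE was taken as the absolute log2 fold change divided by the square root of the F statistic. The 95% intervals are t intervals built from that SE, so both are approximate. CPM per kb divides CPM by merged exon length in GENCODE vM21 (GRCm38). Intervals on ratios of reads (Clopper-Pearson) cover counting error only. On data simulated for this comparison (12707 genes tested), edgeR recovered 33 of 50 genes changed 1.2-fold, 46 at 1.5-fold and 50 each at 2-fold and 4-fold, with 12 false calls. The simulation changed few genes, evenly up and down and none of low count, whereas 83.8% of all genes tested passed in the data. Its figures therefore do not give the error of the real comparison. Chromosomes came from a GRCm38.p6 gene table that held 97.1% of the Entrez IDs. Exons of 7 of 42 members overlap another gene in GENCODE vM21, so their reads may be split or shared.

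Members, lists and tests were chosen with earlier results of these data known. Members are given library by library if they passed at least 2-fold with a mean of at least 1 CPM or were the most abundant of their role; of each other list, the 3 with the smallest adjusted p and a mean of at least 1 CPM are named, except some that are not reported here. Alternatives were other scalings (total counts, upper quartile, DESeq2 size factors), other tests (limma-voom, DESeq2 1.42.0 Wald), other filters (none, or 1 CPM in 3 libraries), a replicate block, leaving out single libraries and, for shares, reads not divided by length.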

Additional observations from a re-analysis of the deposited data

How the results depend on the processing

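Across these alternatives 24 of 30 tested members kept their direction and side of the threshold, and each of the 9 members changed at least 2-fold passed under all 15 settings with a change still at least 2-fold. The exceptions were Marveld1, Jam3, Tjp1, Cdh11, Gjc1 and Pkp2. Cldn2 and Esam are among the 24 and the 9, but each reached the test only through the group where it was high. The filter favoured a difference in both, so their passing adds no support. Under total-count scaling the log2 fold change was 0.11 for Marveld1, 0.041 for Pkp2 and 0.037 for Dlg1; without KO-labelled replicate 1 Marveld1 stood at 0.030, and its left-out values ran from -0.10 to 0.030. Lin7b, at 0.02, turned to -0.038 with limma-voom and to -0.0047 with the replicate block, and ran from -0.29 to 0.27 with each library left out; it never passed.

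The median of the members was -0.24 with DESeq2's size factors, -0.24 with upper-quartile scaling, -0.11 with total counts, -0.24 with the DESeq2 Wald test, -0.19 without a filter (42 members fitted) and -0.24 with the CPM filter, and -0.28 to -0.18 with a library left out. It stayed below the median of all genes, which total-count scaling moved to 0.16.

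The replicate numbers did not pair the libraries: deviations of same-numbered libraries correlated at 0.00086, -0.037 and -0.0057. With the replicate block 28 members passed, against 27 without it, the added one being Cdh11 (adjusted p = 0.038).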

Other observations

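Immunoglobulin-type receptors, a p120-catenin binder and a p120-catenin relative also moved apart. All are outside the member list and were chosen after their values were seen. Cxadr, the coxsackievirus and adenovirus receptor of tight junctions, was 1.93-fold higher, 331 ± 36 against 171 ± 4.9 CPM (SD over 3 libraries; adjusted p = 2.2e-09, edgeR's quasi-likelihood test). Pvr, a nectin-like receptor that binds Nectin3, rose 2.43-fold from 22.7 ± 2.1 to 55.3 ± 0.96 CPM (adjusted p = 9.2e-11), while Nectin3 fell. Igsf5, also known as JAM4, fell 3.27-fold from 25.1 ± 0.62 to 7.67 ± 0.64 CPM (adjusted p = 4.6e-11). Plekha7, which binds p120-catenin, fell 2.69-fold from 29.0 ± 1.5 to 10.8 ± 0.88 CPM, and Arvcf, a p120-catenin relative, 2.18-fold from 15.1 ± 1.5 to 6.95 ± 0.21 CPM (adjusted p = 2.6e-10 and 3.9e-08). In none of these 5 genes did the groups overlap, as in 84.6% of all genes tested. Because the 5 were chosen after their values were seen, this adds no support.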
